A study of Mus musculus with 13 samples.

Results

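Cytosolic ribosomal proteins are the protein subunits of the ribosomes that translate nuclear mRNAs. Their genes were taken by symbol: Rpsa, Rplp0, Rplp1 and Rplp2, and every symbol that starts with Rpl or Rps, goes on with a number and ends at most in a, x, y, l or an added number, with pseudogene symbols and the Rps6k kinases left out. The rule found 86 genes among the 26264 gene symbols of the tables, 33 of the small (40S) subunit and 53 of the large (60S) subunit. Of these, 77 encode standard subunits and 9 are paralogs, that is, second genes named after a standard subunit: Rpl3l, Rpl7l1, Rpl10l, Rpl22l1, Rpl32l, Rpl36al, Rpl39l, Rps4l and Rps27l.

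The libraries were made from polyadenylated RNA of mouse right ventricles. There were 6 wild-type libraries and 7 from Dsg2 F536C knock-in mice, which carry an amino acid substitution in desmoglein 2, a cadherin of the desmosomes that hold cardiomyocytes together. The model stands for DSG2-linked arrhythmogenic cardiomyopathy, and the series asks how PPAR-gamma bears on its fibrosis and arrhythmia; no library here is labelled with a drug treatment. Whether the knock-in allele was carried on both chromosomes, and the age, sex, strain and litter of the mice, are not among the labels. Nothing in the labels says that each library came from its own animal, so p-values measure only the spread between these samples.

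The ribosomal protein genes are among the most highly expressed genes of most cells, and most of their products are needed in equal numbers for each ribosome. Many of their mRNAs begin with a cytosine followed by a run of pyrimidines, the 5′ terminal oligopyrimidine (TOP) tract, through which mTORC1 and the RNA-binding protein LARP1 govern their translation and stability. In striated muscle Rpl3l replaces the general subunit gene Rpl3, whose product reaches towards the peptidyl transferase centre, and this replacement is known to be a mark of mature heart and skeletal muscle.

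Start-site sequences from the RefSeq promoter table, build GRCm38.p6, were matched by symbol for 65 of the 86 genes. A C at the annotated start followed by at least 4 further C or T letters was found in 14 of the 65 (21.5%), against 3.01% of 27025 symbols in the table. The next 30-base windows begin 10 bases before the annotated start and run 5′ to 3′ on the gene's own strand, with the tract in capitals. The first 4 genes have the tract at the annotated start and the last 4 do not. In the TMM-scaled tests that follow, all of the last 4 were called lower with 10 libraries, and none of the first 4 was called. These 8 windows do not stand for the members at large. Of all matched members tested with 10 libraries, 1 of 14 with a tract and 4 of 49 without were called lower. Rpl35, not shown, has a tract and was called lower with 13 libraries.
Rps18 (chr17:33955646-33955675, minus strand): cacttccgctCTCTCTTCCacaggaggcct
Rps27 (chr3:90213629-90213658, minus strand): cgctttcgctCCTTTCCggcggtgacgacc
Rpl28 (chr7:4792955-4792984, plus strand): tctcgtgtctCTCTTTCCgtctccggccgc
Rps6 (chr4:86857348-86857377, minus strand): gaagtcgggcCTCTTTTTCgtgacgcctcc
Rpl3l (chr17:24727816-24727845, plus strand): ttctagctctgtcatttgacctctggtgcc
Rpl36al (chr12:69184048-69184077, minus strand): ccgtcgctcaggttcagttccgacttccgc
Rps2 (chr17:24720053-24720082, plus strand): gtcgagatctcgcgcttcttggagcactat
Rpl24 (chr16:55966265-55966294, plus strand): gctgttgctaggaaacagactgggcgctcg
The absence of a tract in a window says only that these letters do not follow this annotated start. Rps2 and Rpl3l lie close together on chromosome 17, on the same strand.

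The 250 bases upstream of the Rpl3l start are shown because Rpl3l was the member that fell most, with each match to the E-box letters CANNTG in capitals.
Rpl3l upstream (chr17:24727576-24727825, plus strand): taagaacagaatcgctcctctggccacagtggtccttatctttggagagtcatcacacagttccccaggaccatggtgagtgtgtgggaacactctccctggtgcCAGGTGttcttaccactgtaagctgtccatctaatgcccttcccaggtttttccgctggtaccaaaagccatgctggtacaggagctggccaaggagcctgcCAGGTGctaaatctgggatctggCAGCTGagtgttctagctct
The Rpl3l stretch holds 3 such matches. Searched on both strands of the 300-base promoters, CANNTG was present in 33 of the 65 matched members (50.8%), against 75.0% of all symbols, while CCGGAAG, the core letters bound by ETS factors, was present in 26 (40%) against 9.93%. TCTCGCGA was present in 11 of the 65 members (16.9%), against 1.13% of all symbols. AAGATGG, core letters of the factor YY1, was present in 10 (15.4%), against 7.28%. Rpl3l held none of these last 3 motifs, and a match is a description of letters, not of binding.

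Totals were 14498336 to 29848597 reads per library. Every pair of libraries of a group differed by more than counting noise, the closest pair being wild type 3 and 6. Dsg2 mRNA was 16.878 to 25.002 TPM (a level scaled by transcript length and library size) in wild type and 9.481 to 15.994 TPM in the knock-in, with no overlap. Knock-in 4, 5 and 6 stood apart: values that were not whole made up 10.2% to 10.7% of their estimated read numbers and 3.07% to 3.79% in each of the 10 remaining libraries, and 7 epithelial markers summed to at least 2522 TPM, against 10.2 to 41.3 TPM elsewhere. Every comparison is therefore given with all 13 libraries and with the 10 libraries that leave these 3 out. Among the members, 30 to 32 of 86 had such values in knock-in 4, 5 and 6, and 20 to 22 in the others. The genes concerned in those 3 libraries and in none of the 10 were Rpl5, Rpl10, Rpl10l, Rpl36a, Rpl36al, Rpl39l, Rps18 and Rps25.

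The ribosomal protein mRNAs as a class did not change by much, and their direction depended on the scale used. With libraries scaled by TMM (a trimmed mean that sets the bulk of genes to no change) and edgeR's quasi-likelihood test, 3 of 85 tested members were higher and 15 lower in the knock-in with 13 libraries at an adjusted p under 0.05. With 10 libraries, 2 of 84 were higher and 9 lower. The background was larger in each case: with 13 libraries 23.6% of all 14588 tested genes were called higher and 21.0% lower, against 3.53% and 17.6% of the members. With 10 libraries 22.3% of 14518 genes were called higher and 21.3% lower, against 2.38% and 10.7% of the members. The median log2 fold change of the members was -0.20 with 13 libraries, beside 0.08 over all tested genes, and -0.15 with 10, beside 0.02.

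Scaling by library totals in place of TMM gave 21 members higher and 2 lower with 13 libraries, at a background of 41.9% of genes higher and 11.4% lower, and 10 higher and 1 lower with 10 libraries, at a background of 41.7% and 10.5%. On TPM, tested with limma on log2(TPM + 1), 39 members were higher and 1 lower with 13 libraries, at a background of 52.5% and 7.45%, and 49 higher and 1 lower with 10 libraries, at a background of 53.3% and 6.36%. The lone lower member on TPM was Rpl3l in both sets. Members' medians were 0.05 and 0.11 by library totals, and 0.23 and 0.26 on log2(TPM + 1). On every one of these scales the members' median lay below that of all tested genes, which was 0.33 and 0.26 by library totals and 0.38 and 0.32 on log2(TPM + 1). Folds that follow are on the TMM scale unless another is named, and the direction of any member with a small fold holds on that scale only.

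**Figure D1:**
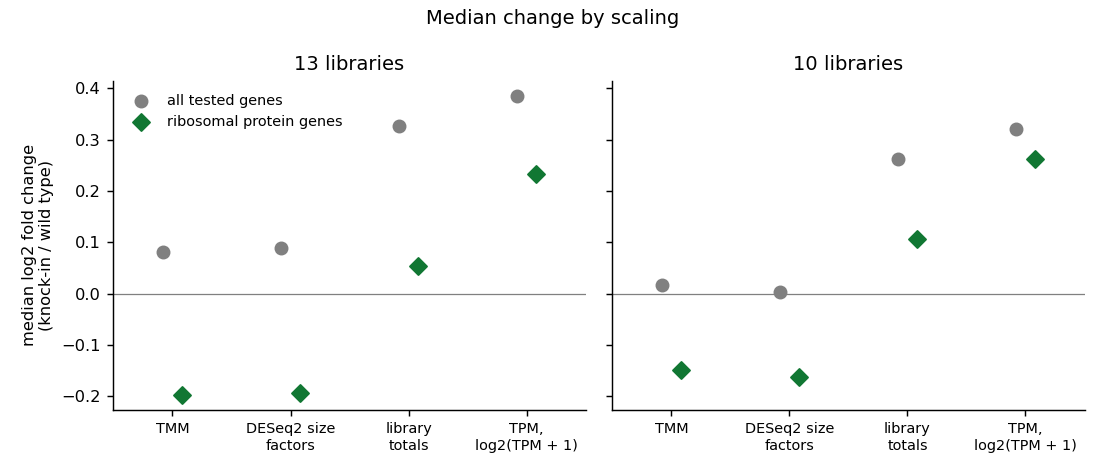
Median log2 fold change, knock-in over wild type, of all tested genes (grey circles) and of the ribosomal protein genes (green diamonds), under 4 scalings with 13 libraries (left) and 10 libraries (right). The members' median is below 0 with TMM and DESeq2 size factors, above 0 by library totals and on TPM, and below the median of all genes in each case.

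As a share of all TPM, the 86 members summed to 8.91% to 11.6% in wild type (10.2% ± 0.907, SD, n = 6) and to 11.3% to 13.9% in the knock-in (12.7% ± 1.03, SD, n = 7). Leaving out knock-in 4, 5 and 6, the knock-in mean was 12.1% ± 0.963 (SD, n = 4). Wild type 1, the highest of its group, overlapped the knock-in range, and wild type 2 was the lowest library. As a share of reads, which does not divide by length, members took 4.30% ± 0.530 (SD, n = 6) in wild type and 4.73% ± 0.388 (SD, n = 7) in the knock-in. No test was made of these sums. In bulk tissue, fewer cells of a type and less RNA per cell cannot be told apart, and this holds for every level given here.

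Both subunits were alike in the 10 libraries. The summed TPM of small subunit members was 0.734 to 0.751 times that of large subunit members in wild type 1 to 6 and knock-in 1, 2, 3 and 7, and 0.660, 0.783 and 0.853 times in knock-in 4, 5 and 6. Among the 77 standard subunits the medians with 10 libraries were -0.11 for the 31 of the small subunit and -0.14 for the 46 of the large one, where 0 and 1 were called higher and 3 and 3 lower. With 13 libraries the medians were -0.16 and -0.24, with 1 higher and 6 lower in each subunit. The paralogs held 1 higher and 3 lower call of 7 tested with 10 libraries, and 1 higher and 3 lower of 8 with 13.

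**Figure D2:**
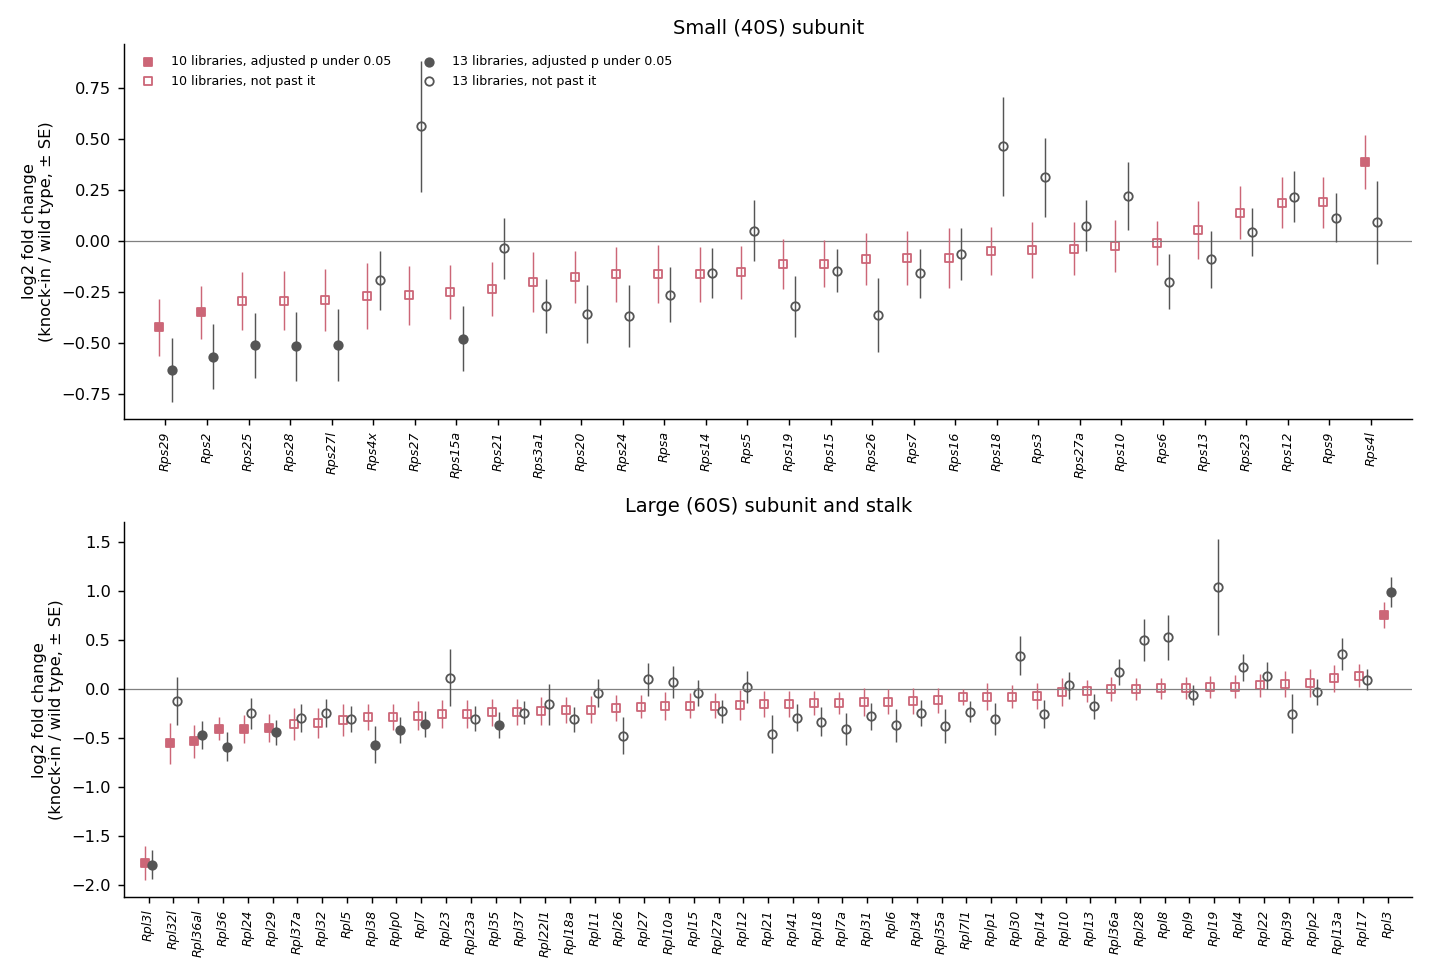
Log2 fold change (knock-in over wild type, TMM scale, ± SE) of the members tested in both sets and reported here, by subunit and ordered by the value with 10 libraries (squares), with the value from 13 libraries as circles; filled symbols have an adjusted p under 0.05. Most members lie between -0.5 and 0.25 with 10 libraries, Rpl3l stands at -1.77 and Rpl3 at 0.76; Rpl39l, tested with 13 libraries alone, is not drawn.

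The clearest changes were a fall of Rpl3l and a rise of Rpl3, the striated-muscle and the general gene for the same large subunit protein. Rpl3l was 199, 228 and 297 TPM (lowest, median and highest) in the 6 wild-type libraries. In the knock-in it was 78.9, 72.9, 137 and 72.2 TPM in libraries 1, 2, 3 and 7, and 96.3, 86.6 and 95.4 TPM in libraries 4, 5 and 6. Every knock-in library lay below every wild-type library, and knock-in 3 was the highest of its group.

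Rpl3 ran the other way. Wild-type libraries had 211, 239 and 316 TPM (lowest, median and highest). The knock-in had 635, 531, 461 and 560 TPM in libraries 1, 2, 3 and 7, and 779, 802 and 914 TPM in libraries 4, 5 and 6. The groups again did not overlap, and knock-in 4, 5 and 6 were above the other 4.

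On the TMM scale Rpl3l fell by 1.79 on the log2 scale (SE 0.15, edgeR adjusted p = 3.01e-06) with 13 libraries and by 1.77 (SE 0.17, adjusted p = 8.91e-06) with 10. Rpl3 rose by 0.99 (SE 0.16, edgeR adjusted p = 0.000247) with 13 and by 0.76 (SE 0.13, adjusted p = 0.000482) with 10. These were the only members called in the same direction on TMM, on library totals and on log2(TPM + 1) in both sets and with each library left out in turn. Rpl3l made up 42.6% to 56.1% of the TPM of the pair in wild type (48.8% ± 5.27, SD, n = 6) and 9.45% to 22.8% in the knock-in (12.5% ± 4.65, SD, n = 7). The sum of the pair was 483 ± 48.8 TPM (SD, n = 6) in wild type and 760 ± 164 TPM (SD, n = 7) in the knock-in, or 637 ± 53.2 TPM (SD, n = 4) without knock-in 4, 5 and 6. The mean log2 ratio of Rpl3l to Rpl3, a measure that no scaling of the library changes, was -0.07 ± 0.31 (SD) in wild type and -2.87 ± 0.51 (SD) in the knock-in, a difference of -2.79. The exact permutation test over the libraries (two-sided) gave p = 0.000583, the smallest 13 libraries can give, and 0.0035 adjusted over the 6 paralog pairs tested. With 10 libraries the difference was -2.57, with an exact permutation p of 0.00476, again the smallest possible, and 0.0286 adjusted. Neither Rpl3 nor Rpl3l is among the genes with read numbers that were not whole in all of knock-in 4, 5 and 6 and in none of the other 10.

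Markers of cardiomyocytes, the cells that express Rpl3l in heart, moved in the same libraries. With 13 libraries 8 of 9 markers were lower and 1, Nppa, higher; with 10 libraries 7 were lower and 1 higher. The largest fall among them was that of Tnni3, -1.62 with 13 libraries and -1.40 with 10, less than that of Rpl3l, and their median was -1.02 and -0.79. The 9 summed to 56033 to 76567 TPM in wild type, 40428 to 54565 TPM in knock-in 1, 2, 3 and 7, and 32904 to 33346 TPM in knock-in 4, 5 and 6, and none was at 0. Macrophage markers were called higher in 5 of 8 with 13 libraries and 8 of 8 with 10, and fibroblast markers in 2 of 7 and 5 of 7. Of the other marker lists, with 13 and 10 libraries, endothelial genes were higher in 0 and 2 of 6, smooth muscle and pericyte genes in 3 and 3 of 6 (1 and 0 lower), lymphocyte genes in 1 and 1 of 4 (0 and 1 lower), and proliferation genes in 5 and 4 of 6 (1 and 0 lower). Epithelial genes were higher in 4 and 0 of 4, skeletal muscle genes lower in 2 and 2 of 4, and no adipocyte or erythroid gene was called in either set. The part of cell composition in the levels of Rpl3 and Rpl3l was not tested.

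**Figure D3:**
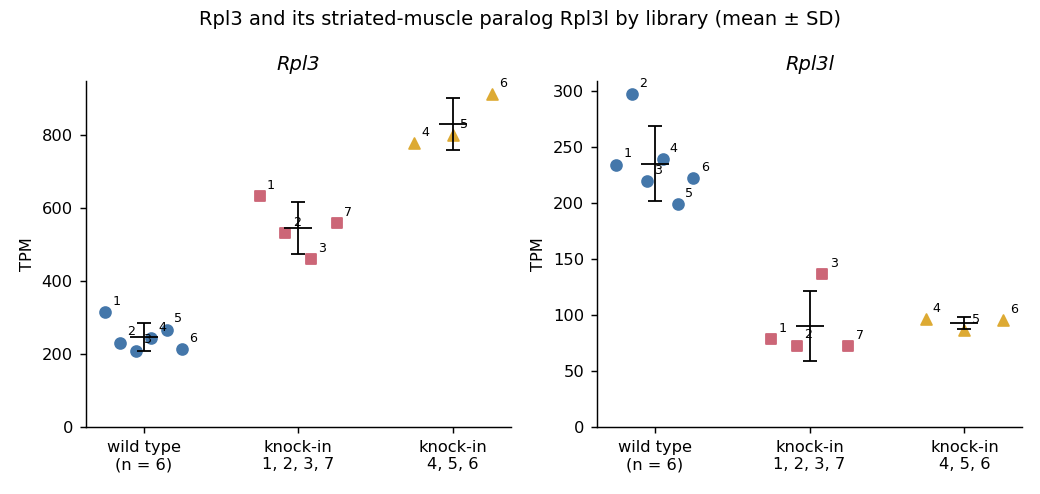
TPM of Rpl3 (left) and Rpl3l (right) in each library, with its replicate number, and the mean ± SD of wild type (n = 6), knock-in 1, 2, 3 and 7 (n = 4) and knock-in 4, 5 and 6 (n = 3). Rpl3l is between 199 and 297 TPM in wild type and at most 137 TPM in the knock-in, while Rpl3 is at most 316 TPM in wild type and at least 461 TPM in the knock-in.

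Among the other paralog pairs, Rpl36al lost ground to Rpl36a, which encodes a nearly identical large subunit protein. The mean log2 ratio was -0.62 ± 0.29 (SD) in wild type and -1.24 ± 0.18 (SD) in the knock-in, a difference of -0.62 (exact permutation p = 0.00117, 0.0035 adjusted), and -0.52 with 10 libraries (exact permutation p = 0.0143, 0.0381 adjusted). Rpl36al made up 32.1% to 43.9% of the pair in wild type and 25.8% to 33.2% in the knock-in, so wild type 1, at the low end, overlapped the knock-in libraries. Rpl36al itself was lower by TMM, -0.47 (SE 0.15, edgeR adjusted p = 0.0185) with 13 libraries and -0.53 (SE 0.17, adjusted p = 0.0183) with 10, while Rpl36a had 0.17 and 0.00 with adjusted p of 0.296 and 0.993. On log2(TPM + 1) Rpl36al was not called, at 0.0040 (limma adjusted p = 0.978) with 13 libraries and -0.10 (adjusted p = 0.469) with 10. Rpl36a was called higher on that scale, at 0.62 (limma adjusted p = 0.00155) and 0.42 (adjusted p = 0.00379). Which gene of the pair was called thus depended on the scale, while the ratio does not. Read numbers of both genes were not whole in knock-in 4, 5 and 6.

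Rpl22l1, which can stand in for Rpl22 in the large subunit, differed from it by -0.28 on the log2 ratio with 13 libraries (exact permutation, adjusted p = 0.490) and by -0.22 with 10 (exact permutation, adjusted p = 0.0381). Knock-in 6 alone had 971 TPM of Rpl22l1, against 338 to 528 TPM in the other knock-in libraries, and without it the difference was -0.50 (exact permutation, adjusted p = 0.0130). That value includes knock-in 4 and 5, where Rpl22l1 was 42.8% and 44.7% of the TPM of the pair. Its share was 55.3% to 60.2% in knock-in 1, 2, 3 and 7, and 59.6% to 63.9% in wild type. Rps27l, known as a p53 target in the cell's stress response, differed from Rps27 by -0.89 with 13 libraries (exact permutation, adjusted p = 0.241) and by -0.01 with 10 (adjusted p = 0.876). That difference passed the threshold without knock-in 7, at -1.07 (exact permutation, adjusted p = 0.0476). Both genes of this ratio differed in knock-in 4, 5 and 6, Rps27 by more. Rps27 was 3856, 4165 and 4619 TPM there and 963 to 1601 TPM in the 10 libraries. Rps27l was 510, 488 and 398 TPM there, 561 to 731 TPM in the other knock-in libraries and 440 to 668 TPM in wild type.

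Rpl7l1, whose product acts in the assembly of the large subunit, had 29.1 ± 2.91 TPM in wild type, and its ratio to Rpl7 differed by 0.08 with 13 libraries (exact permutation, adjusted p = 0.554) and by 0.16 with 10 (adjusted p = 0.440). Rps4l was 24.8 ± 7.02 TPM (SD, n = 6) in wild type, 42.5 ± 5.22 TPM (SD, n = 4) in knock-in 1, 2, 3 and 7 and 25.9 ± 3.88 TPM (SD, n = 3) in knock-in 4, 5 and 6. It was called higher with 10 libraries, by 0.39 (SE 0.13, edgeR adjusted p = 0.0278), and not with 13, at 0.09 (adjusted p = 0.725). The ratio of Rps4l to Rps4x differed by 0.65 with 10 libraries (exact permutation, adjusted p = 0.121) and by 0.23 with 13 (adjusted p = 0.554). Rpl32l was 10.01 TPM on average in wild type and was called lower with 10 libraries, at -0.55 (SE 0.21, edgeR adjusted p = 0.0478), and not with 13, at -0.12 (adjusted p = 0.702).

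The paralogs known from male germ cells, Rpl39l and Rpl10l, were almost unread outside knock-in 4, 5 and 6. Rpl39l had 2 to 17 reads in each of the 10 other libraries and 7338, 6497 and 5878 reads in knock-in 4, 5 and 6, which is 683, 651 and 486 TPM against at most 1.64 TPM elsewhere. Rpl10l had 1 read in wild type 1 and 0 in the other 9, against 376, 309 and 234 reads. In those 3 libraries none of these read numbers was whole, and Rpl39l made up 29.7% to 31.9% of the TPM it shares with Rpl39. Rpl39l was called higher with 13 libraries (log2 fold change 7.94, SE 2.02, edgeR adjusted p = 0.00757); with an indicator for the 3 libraries the value was -0.20 (adjusted p = 0.757), and with 10 libraries it was too low to test. Beside it, the 5 male germ cell markers summed to at most 1.82 TPM in the 10 libraries and at least 3.69 TPM in knock-in 4, 5 and 6, nearly all of it Sycp3, with Tnp1 and Prm1 at 0 in every library. The part of shared reads in these levels was not tested.

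Outside the paralogs, 6 standard subunits were called lower and 1, Rpl3, higher with 10 libraries. These were 7.79% and 1.30% of the 77, beside 21.3% and 22.3% of all tested genes. Rps29, a zinc-binding protein of the small subunit head, had 396, 595 and 707 CPM (reads scaled by TMM library size; lowest, median and highest) in the 6 wild-type libraries, 451, 431, 422 and 431 CPM in knock-in 1, 2, 3 and 7, and 335, 288 and 276 CPM in knock-in 4, 5 and 6. Wild type 2 was the lone wild-type library within the knock-in range. The log2 fold change of Rps29 was -0.42 with 10 libraries (SE 0.14, edgeR adjusted p = 0.0237) and -0.63 with 13 (SE 0.16, adjusted p = 0.00576).

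Rpl36, of the large subunit, had 340, 433 and 489 CPM in the 6 wild-type libraries, 370, 336, 292 and 291 CPM in knock-in 1, 2, 3 and 7, and 283, 218 and 200 CPM in knock-in 4, 5 and 6. Here too wild type 2 was the library that overlapped the knock-in. The fold was -0.40 (SE 0.12, edgeR adjusted p = 0.0128) with 10 libraries and -0.59 (SE 0.14, adjusted p = 0.00522) with 13, and Rpl36 kept its call with each library left out in turn in both sets.

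Rps2, which lines the mRNA entry of the small subunit, was at -0.35 with 10 libraries (edgeR adjusted p = 0.0407) and -0.56 with 13 (adjusted p = 0.0121). Rpl29 was at -0.40 (edgeR adjusted p = 0.0339) and -0.44 (adjusted p = 0.0127). Rpl24, at the face of the large subunit towards the small one, was called with 10 libraries alone, at -0.40 (edgeR adjusted p = 0.0324), and was at -0.25 (adjusted p = 0.221) with 13. On TPM none of those named was called: Rps29, for example, was 3193 ± 309 TPM (SD, n = 6) in wild type and 3201 ± 136 TPM (SD, n = 4) in knock-in 1, 2, 3 and 7. With the 10 libraries their folds on log2(TPM + 1) lay at 0.0010 (Rpl24), 0.0089 (Rps29), 0.021 (Rpl29), 0.038 (Rpl36) and 0.046 (Rps2).

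The lower calls shared by both sets were 7, among them Rpl3l, Rpl36al, Rps29, Rpl36, Rpl29 and Rps2. A further 8 were lower with 13 libraries alone and 2 with 10 alone, no member was called in opposite directions, and 65 were called in neither. Those called lower with 13 libraries alone were Rps25, Rps28, Rps15a and Rps27l of the small subunit, and Rpl38, Rpl35, Rpl7 and Rplp0 of the large one, at -0.57 (Rpl38) to -0.35 (Rpl7). Their values with 10 libraries were -0.29 (Rps25) to -0.24 (Rpl35), with adjusted p of 0.0947 to 0.174.

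How many members passed the test rested on single libraries, above all wild type 2. Without wild type 2 the lower calls were 32 with 13 libraries and 36 with 10. Shares of all tested genes called with a library left out are not given here, so these counts have no background beside them. The 15 lower calls became 23 without knock-in 1, 9 without wild type 3, 9 without wild type 6 and 7 without wild type 5. The 9 lower calls with 10 libraries became 5 without wild type 3, and 3 without wild type 5, wild type 6, knock-in 3 or knock-in 7. The 3 higher calls with 13 libraries became 6 without knock-in 3 and 1 without knock-in 4, knock-in 5 or wild type 2, and the 2 with 10 libraries became 1, Rpl3, without knock-in 2, knock-in 3, knock-in 7, wild type 5 or wild type 6. Calls that held with every library left out numbered 1 of 3 higher and 7 of 15 lower with 13 libraries, and 1 of 2 higher (Rpl3) and 2 of 9 lower (Rpl3l and Rpl36) with 10.

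Of the stalk proteins and the members taken here for known roles outside the ribosome, Rplp0 alone was called on the TMM scale, lower with 13 libraries. On log2(TPM + 1) Rplp0 was called in neither set. There Rplp2 and Rps27a were higher in both sets, Rpl11 with 13 libraries alone, and Rplp1 and Rps6 with 10 alone. On that scale 52.5% of all tested genes were called higher with 13 libraries and 53.3% with 10. The stalk, which recruits the GTPase translation factors, is built on Rplp0 with Rplp1 and Rplp2. Rplp0 had a fold of -0.42 with 13 libraries (edgeR adjusted p = 0.0239) and -0.28 with 10 (adjusted p = 0.0994). Rplp1 was at -0.30 (edgeR adjusted p = 0.148) and -0.08 (adjusted p = 0.674), and Rplp2 at -0.03 (adjusted p = 0.852) and 0.06 (adjusted p = 0.750). Rpl5 and Rpl11, which bind MDM2 together with 5S rRNA when ribosome assembly fails, were at -0.30 and -0.04 with 13 libraries and -0.32 and -0.21 with 10, with adjusted p of 0.0794, 0.853, 0.124 and 0.245 in that order.

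Rps6, the substrate of the S6 kinases, was at -0.20 with 13 libraries (edgeR adjusted p = 0.236) and -0.01 with 10 (adjusted p = 0.951). Rpsa, also known as the laminin receptor precursor, was at -0.26 (edgeR adjusted p = 0.125) and -0.16 (adjusted p = 0.380). Rps27a, made as a fusion with ubiquitin, was at 0.08 (adjusted p = 0.634) and -0.04 (adjusted p = 0.845). Fau and Rack1, ribosomal proteins outside the symbol rule, were at 0.23 and 0.34 with 13 libraries and at 0.11 and 0.00 with 10, and passed in neither.

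Among the members with the highest TPM in wild type were Rpl41, Rplp1 and Rps29, at 3382 ± 361, 3254 ± 420 and 3193 ± 309 TPM (SD, n = 6). Differences between these neighbours were within their spread. Among the standard subunits the lowest were Rps15a at 72.2 ± 5.36 TPM and Rps6 at 105 ± 13.5 TPM (SD, n = 6). Levels of both genes depend on how the deposited tables set lengths and share reads: the effective length given for Rps15a was 4945 to 5053 bases, and the copy Rps6-ps4 held 497 to 712 reads for every 100 of Rps6. Of the 12 symbols named as copies of members, Rps27rt likewise held 172 to 271 reads for every 100 of Rps27. All 12 together held 3.59 to 3.95 reads for every 100 member reads in the 10 libraries and 5.13 to 6.54 in knock-in 4, 5 and 6. Adding the reads of copies to their members left the counts at 3 higher and 15 lower with 13 libraries and 2 and 9 with 10.

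Relative to one another, the subunit mRNAs were even in 10 libraries and uneven in 3. For each of the 77 standard members the log2 of TPM over its wild-type mean was taken, less the library's median over the members. For a wild-type library, that library was left out of the wild-type mean. The SD of these values over members was 0.06 to 0.17 in wild type, 0.16 to 0.22 in knock-in 1, 2, 3 and 7, and 0.57 to 0.67 in knock-in 4, 5 and 6. In wild type no member lay beyond 0.5 in either direction. In each of knock-in 1, 2, 3 and 7 only Rpl3 did, at 0.95, 0.91, 0.72 and 0.87. In knock-in 4, 5 and 6 there were 26, 31 and 39 members beyond 0.5, and 7, 7 and 8 beyond 1.

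The members that were above 0.5 in all of knock-in 4, 5 and 6 were 12, among them Rpl3, Rpl8, Rpl13a, Rpl19, Rpl28, Rpl30, Rpl36a, Rps3, Rps18 and Rps27. Those below -0.5 in all 3 were 7: Rpl7a, Rpl21, Rpl26, Rpl38, Rps15a, Rps25 and Rps29. Rps27 was at 1.41 to 1.65 in these libraries and at -0.21 to 0.21 in the other 10, with no overlap. Rpl19 was at 3.07 in knock-in 4, with 10775 TPM, and at 0.63 and 0.92 in knock-in 5 and 6, so its level rests on 1 library. Rpl38 lay at the other end, at -0.99 to -0.63, against -0.21 to 0.18 in the other 10. The 7 knock-in libraries carry the same genotype label, and the part of read sharing in these values was not tested.

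**Figure D4:**
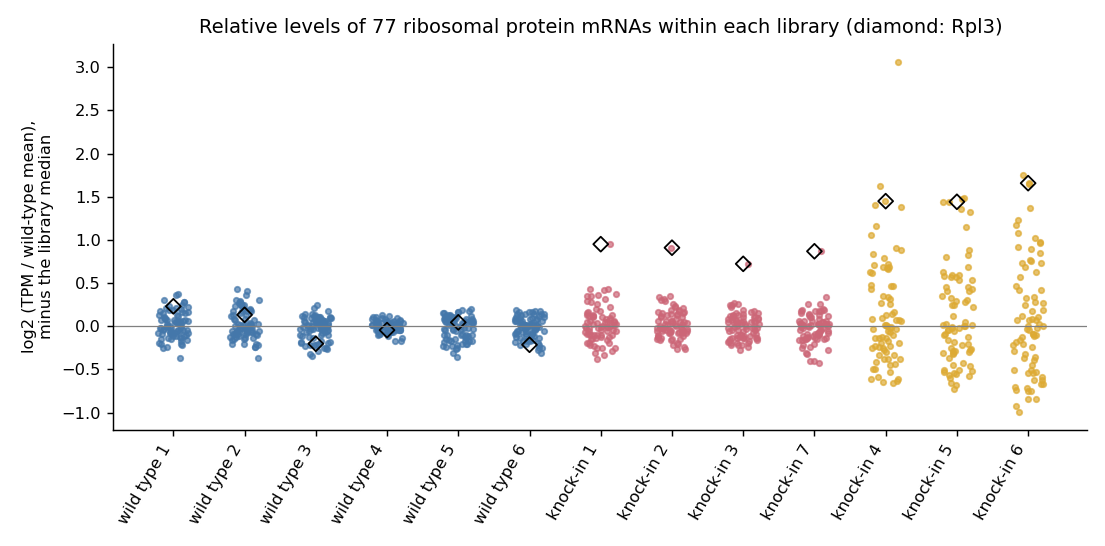
Log2 of TPM over the wild-type mean, less the library median, for each of the 77 standard ribosomal protein mRNAs (points) in the 13 libraries, with Rpl3 as a diamond. Points lie within 0.5 of 0 in wild type, with Rpl3 alone above 0.5 in knock-in 1, 2, 3 and 7, and spread from -0.99 to 3.07 in knock-in 4, 5 and 6.

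Genes that make ribosomes or use them gave the setting for these values, from lists of symbols. Their counts are to be read beside all tested genes. Of those, 23.6% were called higher and 21.0% lower with 13 libraries, and 22.3% and 21.3% with 10. Of 13 tested genes of rRNA synthesis, 1 was higher and 3 lower with 13 libraries, and 0 and 2 with 10. Ubtf, which opens rDNA chromatin for RNA polymerase I, was the higher gene (0.29, edgeR adjusted p = 0.0139; with 10 libraries 0.21, adjusted p = 0.0507), and Taf1b, of the selectivity factor, fell by 0.65 (adjusted p = 0.00164) and by 0.51 (adjusted p = 0.00577). Of 32 small subunit processing factors 9 were higher and 4 lower with 13 libraries, and 3 and 3 with 10. Rrp12, which exports pre-ribosomes, rose by 1.44 (SE 0.27, edgeR adjusted p = 0.000919) and by 0.89 (SE 0.15, adjusted p = 0.000428), while Emg1 fell by 0.55 (adjusted p = 0.00129) and by 0.53 (adjusted p = 0.0018). Of 46 large subunit processing factors 8 were higher and 4 lower, and 6 and 5 with 10, among them Bop1 at 0.58 and 0.37 (edgeR adjusted p = 0.00393 and 0.00343).

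Of 17 genes whose mRNAs begin with the same TOP tract as many members, most of them translation factors, 6 were called higher with 13 libraries and 3 with 10, and none lower. Of all tested genes 23.6% and 22.3% were called higher. The median fold of the 17 was 0.30 with 13 libraries and 0.07 with 10, against 0.08 and 0.02 over all genes. Eef1a1, which brings aminoacyl-tRNA to the ribosome, rose by 1.34 (SE 0.23, edgeR adjusted p = 0.000471) and by 0.85 (SE 0.13, adjusted p = 0.000229). Pabpc1, the cytoplasmic poly(A)-binding protein, rose by 2.49 (SE 0.60, edgeR adjusted p = 0.00567) and by 0.66 (SE 0.08, adjusted p = 4.99e-05). The members and these genes were not tested against each other. Vim, also counted among the higher genes of the list in both sets, encodes an intermediate filament of fibroblasts and other non-muscle cells, not a translation factor, and rose by 1.09 and 0.88 (edgeR adjusted p = 0.000192 and 0.000532).

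Of 35 other initiation and elongation factors, 4 were higher and 9 lower with 13 libraries, and 0 and 11 with 10. The background for this and the following lists was 23.6% higher and 21.0% lower with 13 libraries, and 22.3% and 21.3% with 10. Eif4e, which binds the mRNA cap, fell by 0.63 (SE 0.11, edgeR adjusted p = 0.000661) and by 0.66 (SE 0.13, adjusted p = 0.00102). Of 24 genes of mTORC1 and TOP mRNA control 7 were higher and 4 lower, and 3 and 3 with 10. Sesn2 and Castor1, amino acid sensors that hold mTORC1 back, rose by 1.00 and 1.06 with 13 libraries (edgeR adjusted p = 0.000482 and 0.000376) and by 0.80 and 0.92 with 10 (adjusted p = 0.0021 and 0.000187). Of 10 MYC family genes 3 were higher in each set. Myc, a transcriptional activator of ribosome production, rose by 3.45 (SE 0.81, edgeR adjusted p = 0.00468) and, without knock-in 4, 5 and 6, by 1.36 (SE 0.19, adjusted p = 0.000108); wild-type libraries held 2.42 to 4.17 CPM, and knock-in libraries 5.96 to 140.3 CPM.

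On log2(TPM + 1), where 52.5% of all tested genes were called higher with 13 libraries and 53.3% with 10, and 7.45% and 6.36% lower, the calls of these lists were higher but for 1 gene. With 13 and 10 libraries they were 28 and 26 of the 32 small subunit processing factors, 32 and 29 of the 46 large subunit ones, and 15 and 14 of the 17 TOP genes. They were also 7 and 5 of the 13 rRNA synthesis genes, 14 and 10 of the 24 of mTORC1 and TOP mRNA control, and 8 and 7 of the 10 MYC family genes. Of the 35 other factors 21 and 15 were higher, and 0 and 1 lower.

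The mitochondrial ribosome, a separate machine that translates the mitochondrial genome from its own set of nuclear genes, was lower in most of its genes. With 13 libraries 67 of 78 mitochondrial ribosomal protein genes were lower and 0 higher, with a median of -0.60, and with 10 libraries 70 were lower and 0 higher, with a median of -0.53. By library totals 44 and 45 of the 78 were lower, and on log2(TPM + 1) 30 and 24 were lower while 4 and 1 were higher. Of all tested genes 21.0% and 21.3% were lower by TMM, 11.4% and 10.5% by library totals, and 7.45% and 6.36% on log2(TPM + 1). Mrps35 averaged 100.1 ± 6.37 CPM (SD) over the 6 wild-type libraries and 51.8 ± 8.22 CPM (SD) over the 7 of the knock-in, with no overlap, and fell by 0.95 with 13 libraries (edgeR adjusted p = 2.96e-05) and by 0.92 with 10 (adjusted p = 3.8e-05). The difference between the cytosolic and mitochondrial sets was not tested. Cardiomyocytes are rich in mitochondria, and the cardiomyocyte markers given beside Rpl3l were lower in the same libraries; the part of that in these values was not tested.

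**Figure D5:**
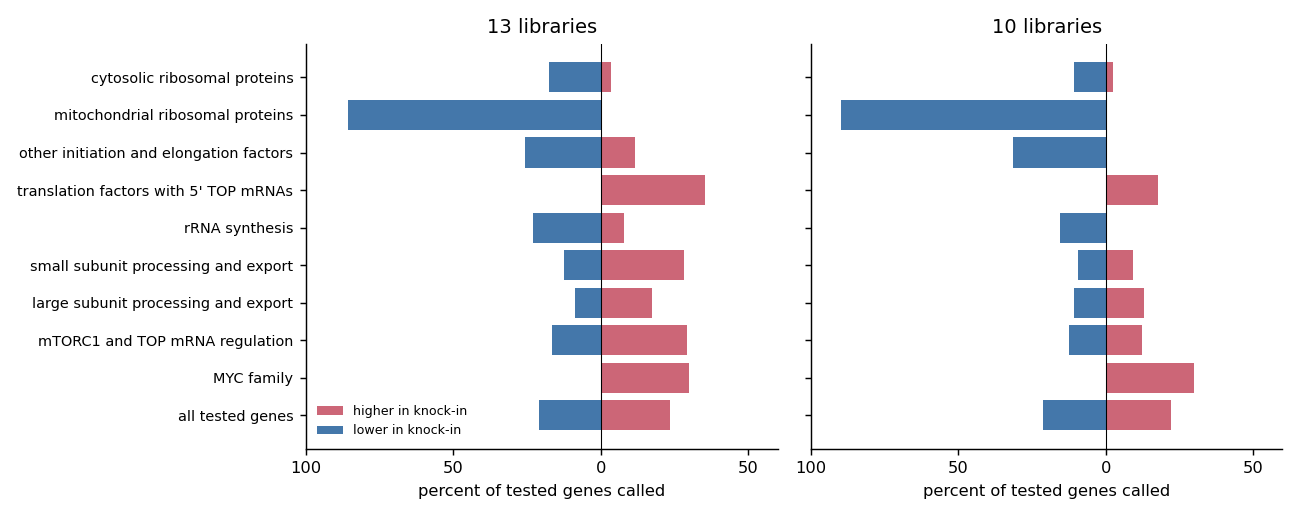
Percent of the tested genes of each list called higher (right, red) or lower (left, blue) in the knock-in by edgeR on the TMM scale, with 13 libraries (left panel) and 10 libraries (right panel). Mitochondrial ribosomal protein genes are lower in 67 and 70 of 78, cytosolic ribosomal protein genes in 15 of 85 and 9 of 84, and the bottom bar gives all tested genes.

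Members with and without the TOP tract at the annotated start had like folds on the TMM scale. With 10 libraries the 14 tested members with a tract had a median log2 fold change of -0.14 (-0.55 to 0.06) and the 49 without it -0.14 (-1.77 to 0.19). Rpl3 is not among the genes matched to the promoter table.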

How the data were processed

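Right ventricle RNA of 6 wild-type and 7 knock-in libraries was enriched for poly(A) and made into stranded libraries, per the labels' protocols. DRAGEN, with no version, and the build GRCm39 (mm39) are named in the submitters' processing notes; which annotation and strand setting were used is not given in the sources used here. Each deposited table holds, per the file headers, a gene's effective length, its TPM and its estimated count, which can be fractional. Counts of genes that share sequence with copies, or that overlap on opposite strands, are uncertain.

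Estimated counts were rounded, genes filtered with filterByExpr, and knock-in compared with wild type by edgeR 4.0.16 (R 4.3.3) with TMM scaling, robust quasi-likelihood F tests, no covariate; p was adjusted after Benjamini and Hochberg over every tested gene, with calls at an adjusted p under 0.05. The SE is the fold divided by the square root of F. Of 86 members 85 were tested with 13 libraries (not Rpl10l) and 84 with 10 (not Rpl10l or Rpl39l). Values count as whole within 1e-09. CPM values are TMM-scaled. Paralog ratios were taken on TPM and tested by a two-sided exact permutation test over libraries, for the 6 pairs with enough reads. The scripts were tested on simulated data. Alternatives were DESeq2 1.42.0, its size factors, library totals, limma 3.58.1 on log2(TPM + 1) and log2(TPM + 0.1), other filters, a replicate block, an indicator for knock-in 4, 5 and 6, each library left out, and, added after seeing the data, copies summed with their members. Promoter sequences are RefSeq's, from build GRCm38.p6, which is not that of the files. Python 3.11.15, numpy 2.4.6, scipy 1.17.1, pandas 2.3.3 and matplotlib 3.10.9 were also used.

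The members and the lists were chosen with earlier results of these data known. Named genes were Rpsa, the stalk, Rps27a, Rps6, Rpl5, Rpl11, both genes of the paralog pairs, per subunit the 3 highest and 3 lowest by wild-type TPM and the 5 largest called rises and falls, and per list up to 3 called genes by p. Rps27, Rpl19, Rpl38 and the other members named for uneven levels in knock-in 4, 5 and 6 were taken by the limit of 0.5 given with them. Some genes that these rules name are not reported here.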

Additional observations from a re-analysis of the deposited data

Results flagged for a closer look

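In 90 groups of member levels, their sums or ratios between members, each with 6 or 7 libraries, 10 held a library far from the rest by Dixon's test, where chance gives about 1 in 20 (5.0%). Wild type 2 had 1425 TPM of Rpl7, against 1784 to 1929 TPM in the other wild-type libraries, 1162 TPM of Rps28, against 1557 to 1646 TPM, and a log2 ratio of Rpl7l1 to Rpl7 of -5.37, against -6.20 to -5.93. Wild type 1 had 296 TPM of Rpl22, against 213 to 233 TPM, 2197 TPM of Rpl39, against 1371 to 1587 TPM, and 0.063 TPM of Rpl10l, against 0, a value that is 1 read. Knock-in 6 had 2472 TPM of Rpl24, against 1218 to 1564 TPM in the other knock-in libraries, and 971 TPM of Rpl22l1, against 338 to 528 TPM. Knock-in 3 had 137 TPM of Rpl3l, against 72.2 to 96.3 TPM, and a log2 ratio of Rpl3l to Rpl3 of -1.76, against -3.26 to -2.87. Knock-in 3 remained below every wild-type library in Rpl3l and above every one in Rpl3.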

How the results depend on the processing

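Rpl3l and Rpl3 kept direction and call under every alternative run, in both sets. The count of members called higher with 13 libraries (3) was 5 with DESeq2, 21 by library totals and 39 on log2(TPM + 1) and log2(TPM + 0.1), and 1 to 6 with a library left out. The count called lower (15) was 23 with DESeq2, 9 without knock-in 4, 5 and 6, 6 with an indicator for them, 2 by library totals, 1 on both TPM scales and 7 to 32 with a library left out. With DESeq2 27.1% of the members were lower, beside 3244 of all 14588 tested genes, so there the members' share was the larger. The higher calls were 5.88% of the members, beside 3876 genes. With the indicator 7.06% of the members were lower, beside 2668 of the 14588 genes. With 10 libraries, the count higher (2) was 10 by library totals, 49 on both TPM scales and 1 to 2 with a library left out, and the count lower (9) was 1 by library totals, 1 on both TPM scales and 3 to 36 with a library left out. The cause was not tested.

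With 13 libraries, leaving out a library gave log2 ratio differences of -2.98 to -2.71 (Rpl3l to Rpl3), -0.71 to -0.57 (Rpl36al to Rpl36a), -0.50 to -0.14 (Rpl22l1 to Rpl22), -1.07 to -0.64 (Rps27l to Rps27), 0.03 to 0.19 (Rpl7l1 to Rpl7) and 0.11 to 0.44 (Rps4l to Rps4x). That of Rpl22l1 passed the threshold without knock-in 4, 5 and 6, at -0.22. The summed members were 25.3% above wild type on TPM and 10.1% as a share of reads.

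Whether replicate numbers pair the samples is not among the labels. Deviations of same-numbered libraries correlated at -0.113 to 0.0845 with 13 libraries and at 0.238, 0.128 and -0.0355 with 10. Correlations over so few pairs cannot settle whether the samples were paired. With the replicate block there were 2 higher and 5 lower calls with 13 libraries, beside 2270 and 2541 of all 14588 tested genes. With 10 libraries there were 1 and 1, beside 1385 and 1400 of 14518. Under the block the members' median was -0.20 with 13 libraries, beside 0.049 over all tested genes, and -0.011 with 10, beside 0.0021. The paired ratios were -2.78 for Rpl3l and -0.64 for Rpl36al, each with an adjusted exact p of 0.0938. For these, 6 pairs allow no p under 0.0312 before adjustment.

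Values called on at least one scale changed sign on log2(TPM + 0.1) and on log2(TPM + 1), with values that round alike unless both are given. With 13 libraries these included Rpl7 (0.11), Rpl36al (0.0040), Rps14 (0.29), Rpl11 (0.41), Rplp0 (0.011), Rplp2 (0.40), Rpl29 (0.020) and Rps4x (0.28). With 10 they included Rpl41 (0.27), Rps27a (0.38), Rps29 (0.0089), Rpl24 (0.0010), Rps2 (0.046), Rpl7l1 (0.30), Rpl36 (0.038), Rps14 (0.25), Rps6 (0.40), Rplp1 (0.35), Rpl29 (0.021), Rpl10 (0.38), Rpl36a (0.42), Imp3 (0.0059, and 0.0058 with the larger pseudocount) and Rsl1d1 (0.061 and 0.060). With the indicator for knock-in 4, 5 and 6, Rpl39l had -0.20.

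Depth did not limit most members, but Rpl10l and Rpl39l had at most 17 reads in 10 libraries.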
